A study of Mus musculus with 4 samples.

Results

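Cholesterol metabolism in sorted striatal neurons was followed through 34 genes of synthesis, regulation, transport and turnover, taken by name from a list of 35 and matched to the table by Ensembl identifier, out of 37620 identifiers in all. Hmgcs1, the remaining listed gene, was not analysed here. The members were 7 genes of the mevalonate and isoprenoid steps, 11 of the steps from squalene to cholesterol, 7 regulators, 7 transport genes and 2 turnover genes. RNA was sequenced from direct-pathway (D1) and indirect-pathway (D2) medium spiny neurons, the 2 classes of striatal output neuron, of male FVB/NJ mice aged 5 to 6 months. BACHD mice, a model of Huntington's disease, are hemizygous for a bacterial artificial chromosome (BAC) that drives full-length mutant Htt with 97 glutamines from its own regulatory sequences, and wild-type (WT) littermates lack it. Every mouse also carried a BAC reporter, Drd1-EGFP for the D1 groups or Drd2-EGFP for the D2 groups, and cells were sorted by flow cytometry for the fluorescent protein. Each of the 4 groups was 1 library from 4 pooled animals, 150000 cells of each, so no group had a replicate and the D1 and D2 groups differ in reporter line as well as cell type. Where 4 values follow a gene, they are the WT and then the BACHD library of D1 cells, followed by the WT and BACHD libraries of D2 cells.

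The adult brain makes nearly all of its own cholesterol, because lipoproteins do not cross the blood-brain barrier. Acetyl-CoA is built into mevalonate, then isoprenoids, squalene and sterols, under control of the transcription factor SREBP2, which its escort SCAP carries out of the endoplasmic reticulum when sterols are low and which INSIG proteins hold back when sterols are high. Astrocytes pass cholesterol on as APOE particles, which neurons take up through receptors such as LRP1, and neurons dispose of the excess as 24S-hydroxycholesterol, made by CYP46A1. Reduced activity of this pathway has been described in several models of Huntington's disease.

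The libraries held 41325647 to 44523622 estimated counts, with 5.87% to 9.34% of them from mitochondrially encoded genes. All 8 markers shared by medium spiny neurons were present at 373 CPM or more in every library. CPM here are counts scaled to the library total with TMM factors. The 4 D1 markers summed to 2108, 1976, 110.3 and 79.9 CPM. The 4 D2 markers summed to 173.0, 158.8, 13045 and 12297 CPM, so each sort was rich in its own markers. Markers of other cells were also present, and their levels are given beside the results that move with them.

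All 34 genes were expressed at 1 CPM or more in all 4 libraries. Levels are compared between genes in FPKM, which is scaled by gene length. Turnover held the gene with the highest and the gene with the lowest level. Cyp46a1, the neuronal cholesterol 24-hydroxylase that starts its removal from the brain, stood at 315.2, 321.4, 327.1 and 345.8 FPKM. Soat1, which esterifies cholesterol for storage, stood at 0.822, 0.855, 0.545 and 0.481 FPKM. The level of Cyp46a1 was far above that of Soat1 in each of the 4 libraries.

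The 18 synthesis genes summed to 233.2, 235.8, 214.6 and 216.2 FPKM, less than Cyp46a1 alone. Acat2, the cytosolic thiolase that joins acetyl-CoA units, had a mean of 21.7 FPKM, close to that of Fdps, which makes farnesyl diphosphate (22.6, 22.1, 20.8 and 20.9 FPKM). Ggps1, which makes geranylgeranyl diphosphate for protein prenylation, stood at 13.2, 11.5, 12.6 and 12.5 FPKM. Idi1, the isopentenyl diphosphate isomerase, was the lowest of these early steps with a mean of 1.72 FPKM. Among the later steps Msmo1, the sterol C4 methyl oxidase, led with 52.2, 52.9, 50.2 and 48.1 FPKM, followed by Tm7sf2, a sterol C14 reductase, with 20.6, 20.4, 21.2 and 22.4 FPKM. The other sterol genes had means from 2.44 FPKM (Hsd17b7) to 19.0 FPKM (Fdft1, squalene synthase). Neither Msmo1 nor Tm7sf2 was called by a test of genotype or cell type.

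Among the regulators, Nr1h2, the liver X receptor beta gene, stood at 46.1, 42.3, 42.4 and 42.9 FPKM, and its relative Nr1h3 (liver X receptor alpha) had a mean of 1.70 FPKM. Srebf2, which encodes SREBP2, stood at 40.7, 43.7, 35.8 and 35.9 FPKM, and Srebf1, more closely tied to fatty acid synthesis, had a mean of 5.50 FPKM. Scap stood at 25.8, 25.2, 22.9 and 22.2 FPKM, and Insig2 (mean 21.1 FPKM) exceeded Insig1 (mean 10.1 FPKM). Among transport genes, Lrp1 stood at 144.9, 152.7, 141.9 and 138.3 FPKM. Apoe stood at 55.0, 69.7, 76.0 and 74.7 FPKM, with D1 WT the lowest library. In RNA from pooled sorted cells, fewer cells of a type and less RNA per cell cannot be told apart, which applies to Apoe and to the astrocyte and microglial markers alike. Abcg1, a sterol exporter, stood at 24.0, 24.2, 26.0 and 24.9 FPKM. Abca1, the exporter that loads lipid onto apolipoproteins, had a mean of 0.745 FPKM. Npc2, Npc1 and Stard4, which move cholesterol out of lysosomes or through the cytosol, had means of 10.2, 5.01 and 2.78 FPKM.

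**Figure D1:**
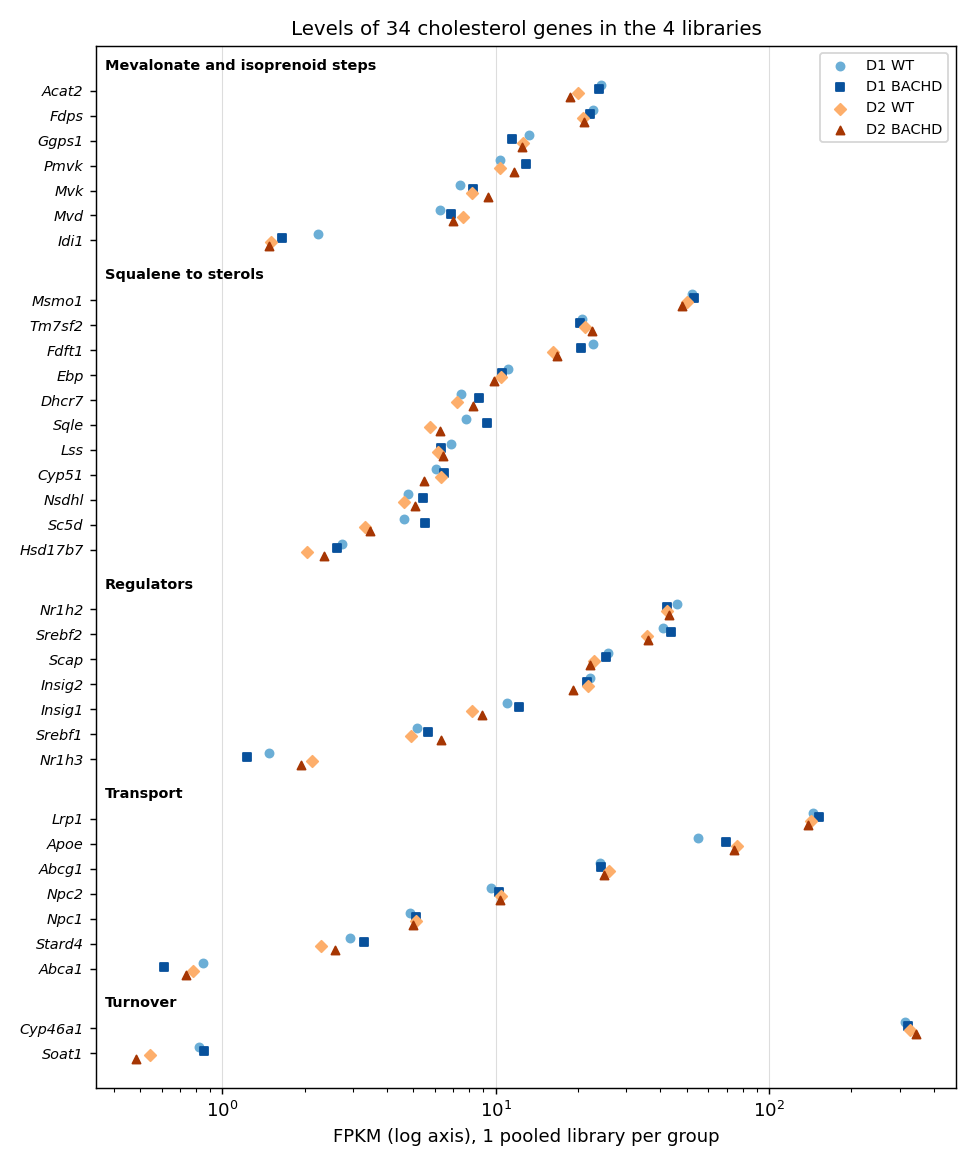
Level of each of the 34 cholesterol genes in FPKM (log axis) in the 4 libraries, 1 point per library, ordered by mean within each role. Cyp46a1 sits between 315.2 and 345.8 FPKM and Soat1 between 0.481 and 0.855 FPKM, while the 4 points of most genes lie close together.

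The first comparison asked whether mutant Htt changed these genes in striatal output neurons. No member was called for genotype in a model of cell type and genotype fitted to the 4 libraries (edgeR quasi-likelihood test, Benjamini-Hochberg adjusted p under 0.05, BACHD and WT n = 2 pools each), beside 0.440% of all 13400 genes tested. The fitted changes ran from -0.23 (Abca1) to 0.24 (Pmvk) on the log2 scale. Their median was 0.01, and the median over all genes was also 0.01. Before adjustment 4 members (11.8%) had p under 0.05, beside 13.4% of all genes. DESeq2 called none, with 0 members at an unadjusted p under 0.05, beside 4.16% of all genes. By limma on log2 FPKM none was called, with 2 (5.88%), beside 12.8% (pseudocount 0.1) and 12.5% (pseudocount 1) of all genes.

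Those 4 were all synthesis genes with higher fitted values in BACHD, and none of them passed. Mvk, the mevalonate kinase, stood at 10.03, 11.9, 11.7 and 13.5 CPM (BACHD minus WT log2 change 0.23 ± 0.09, SE; edgeR adjusted p = 0.355). Pmvk, the kinase of the next step, stood at 12.1, 15.0, 12.7 and 14.2 CPM (0.24 ± 0.09; adjusted p = 0.320). Both kinase genes had the larger value in the BACHD library of each pair, although the D1 BACHD and D2 WT libraries were close for Mvk. Sqle, squalene epoxidase, stood at 21.1, 25.2, 16.4 and 17.8 CPM (0.19 ± 0.08; adjusted p = 0.340). Dhcr7, which catalyses a last step to cholesterol, stood at 18.1, 21.1, 18.1 and 20.8 CPM (0.21 ± 0.07; adjusted p = 0.279). For Dhcr7 both BACHD libraries lay above both WT libraries, and its adjusted p was the lowest of the 34. Pmvk, Sqle and Dhcr7 were highest in D1 BACHD, as was the sum of 6 cortical glutamatergic markers (28.4, 134.5, 1.498 and 2.05 CPM), of which 4 were called higher in BACHD. All 8 oligodendrocyte markers were higher in the BACHD library of both cell types (sums of 313.7, 363.5, 337.7 and 402.0 CPM), as Mvk, Pmvk, Sqle and Dhcr7 were. Their part in these genotype values was not tested.

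Within a cell type there was 1 library on each side, so ratios were described with 95% intervals that cover counting error only. No member reached a 2-fold ratio, beside 1.28% of all genes in D1 and 0.575% in D2. In D1 the BACHD to WT ratios ran from 0.767 (Abca1) to 1.251 (Apoe), and in D2 from 0.850 (Cyp51) to 1.19 (Srebf1). On the log2 scale the lowest bound of an interval was -0.63 (Nr1h3 in D1) and the highest was 0.48 (Pmvk in D1). The interval excluded a ratio of 1 for 10 members above and 6 below in D1, beside 20.3% and 21.5% of all genes, and for 6 above and 5 below in D2, beside 18.6% and 18.5%.

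In both cell types the interval excluded 1 the same way for 4 members (11.8%), beside 15.2% of all genes. It lay above 1 for 3 and below 1 for 1, beside 6.37% and 8.87%, and excluded 1 in opposite ways for none, beside 4.66%. Mvk had log2 ratios of 0.25 (0.06 to 0.44) in D1 and 0.20 (0.03 to 0.37) in D2, and Dhcr7 had 0.22 (0.08 to 0.36) and 0.20 (0.06 to 0.34). Cyp46a1, at 652.4, 667.9, 711.1 and 750.3 CPM, had 0.03 (0.01 to 0.06) and 0.08 (0.05 to 0.10). Lrp1, at 392.5, 377.9, 380.9 and 355.5 CPM, had -0.05 (-0.09 to -0.02) and -0.10 (-0.13 to -0.07). The intervals of Cyp46a1 and Lrp1 were narrow at these high counts, and the ratios themselves were close to 1. For Lrp1 the FPKM values ran the other way in D1, and the fitted genotype change was 0.02 on FPKM against -0.08 ± 0.05 on counts. For Cyp46a1 the fitted change was 0.06 ± 0.05 (edgeR adjusted p = 0.693).

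The remaining genes were split by role without a common direction. Of the 7 regulators, 4 had positive and 3 negative fitted genotype values, from -0.14 to 0.17. Of the 7 transport genes, 4 were positive and 3 negative, with Abca1 at 8.01, 6.15, 8.25 and 7.73 CPM the lowest fitted value (-0.23 ± 0.13; adjusted p = 0.470). Apoe stood at 52.4, 65.6, 74.5 and 73.8 CPM, with a counting interval above 1 in D1 alone. Its fitted change was 0.15 ± 0.08 (adjusted p = 0.458). The sum of 7 astrocyte markers was 129, 179, 173 and 171 CPM, with 6 of 7 higher in BACHD in D1 and 3 of 7 in D2. The part of astrocyte RNA in the genotype values of Apoe was not tested.

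**Figure D2:**
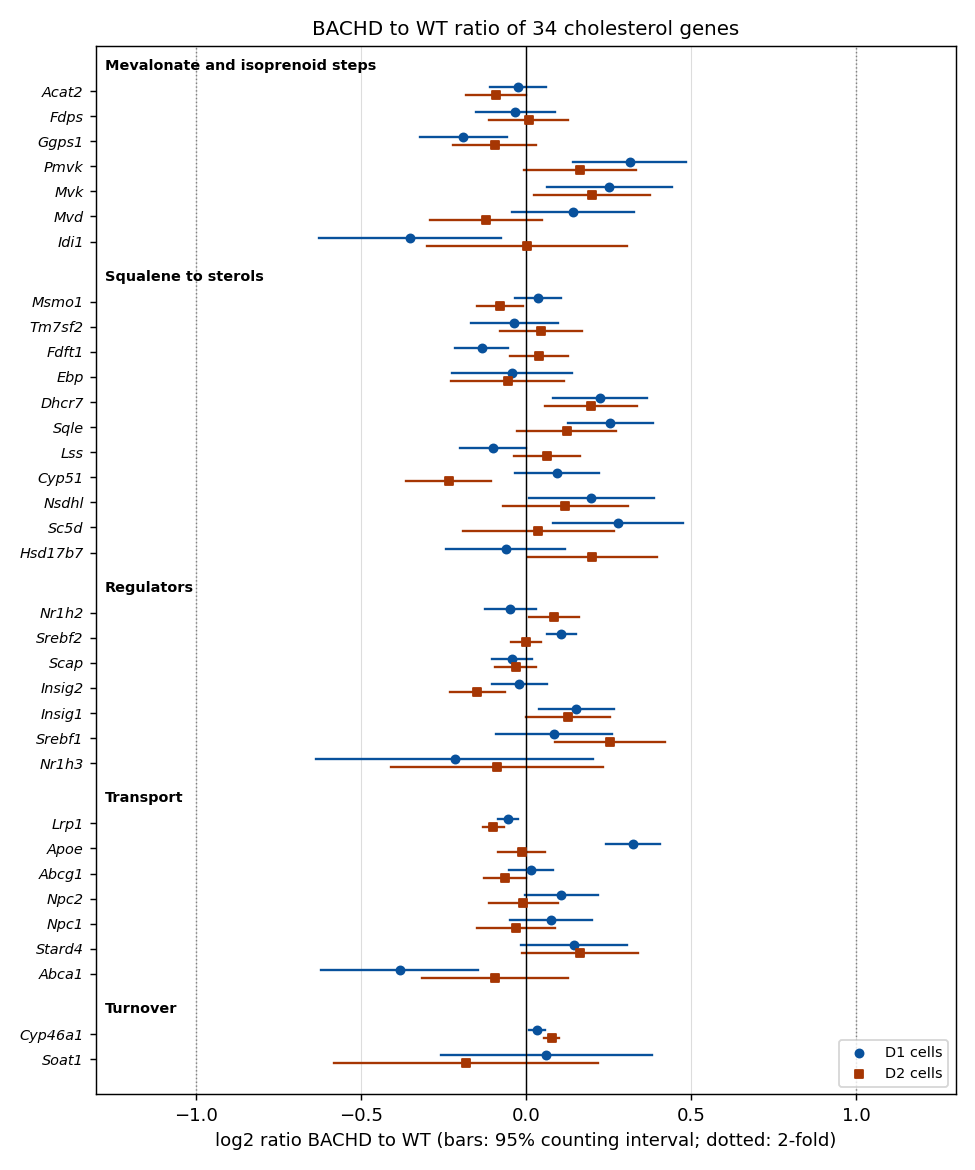
BACHD to WT log2 ratio of each member in D1 cells (circles) and D2 cells (squares), with 95% counting intervals as bars and dotted lines at a 2-fold ratio. No point reaches a dotted line, and Mvk, Dhcr7 and Cyp46a1 lie right of 0 and Lrp1 left of 0 with both intervals.

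The second comparison asked whether the 2 kinds of output neuron differ in cholesterol genes. Of the 18 synthesis genes 4 (22.2%) were called higher in D1 cells, beside 10.2% of all genes. Insig1 was also called higher in D1 cells, while Apoe and Nr1h3 were called higher in D2 cells. The cell type term called 8 of 34 members (23.5%), 6 higher in D1 and 2 higher in D2 (edgeR adjusted p under 0.05, n = 2 pools of each), beside 17.0% of all genes, 10.2% higher in D1 and 6.81% higher in D2. Over all genes 1361 were higher in D1 and 913 in D2. Scaling by total counts gave 2207 and 735 (22.0% of all genes called), with 11 members called. With cell type as the 1 term, 3 of the 8 were called on all 4 libraries (Fdft1, Insig1 and Sqle), beside 10.8% of all genes. With 3 libraries this 1-term model is the one that leaves a residual. Without D1 WT it called 3 members (Insig1, Sc5d and Sqle), without D1 BACHD 2 (Apoe and Fdft1), and without D2 WT or without D2 BACHD none, by edgeR with 7 and 8 at an unadjusted p under 0.05. DESeq2 called Apoe and Fdft1, beside 9.93% of all genes. By DESeq2 and by the 1-term model on 4 libraries, the share of members called was below that of all genes. Each of the 8 kept its direction under every alternative run.

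Of the 7 mevalonate and isoprenoid genes 1 was called. Acat2 stood at 53.4, 52.5, 45.9 and 43.1 CPM (D2 minus D1 log2 difference -0.25 ± 0.06, SE; edgeR adjusted p = 0.0230). Both D1 libraries lay above both D2 libraries. The estimated counts of Acat2 were not whole in any library, and mice have a close copy of the gene, Acat3, so the share of reads given to each is uncertain.

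Of the 11 sterol genes 3 were called, all higher in D1. Fdft1, whose product joins farnesyl units into squalene, stood at 63.3, 57.6, 47.7 and 49.0 CPM (-0.32 ± 0.06; adjusted p = 0.0109). Sqle, whose product oxidises squalene in the following step, stood at 21.1, 25.2, 16.4 and 17.8 CPM as above (-0.44 ± 0.08; adjusted p = 0.0062). The consecutive pair that makes and oxidises squalene was thus called in the same direction, with no overlap between D1 and D2 libraries. Sc5d, the sterol C5 desaturase, stood at 9.14, 11.1, 7.26 and 7.45 CPM (-0.45 ± 0.12; adjusted p = 0.0335), again with both D1 libraries above both D2 libraries. The other 8 sterol genes were not called, and Lss, which closes the ring after squalene epoxidation, stood at 39.3, 36.7, 37.2 and 38.9 CPM with D1 and D2 libraries overlapping.

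Of the 7 regulators 2 were called, in opposite directions. Insig1, whose product retains SCAP and SREBP2 when sterols are high and whose own transcription SREBP2 drives, stood at 28.4, 31.6, 22.1 and 24.2 CPM (-0.37 ± 0.07; adjusted p = 0.0076). Srebf2 stood at 198.4, 213.7, 183.3 and 183.4 CPM (-0.17 ± 0.05; adjusted p = 0.0617) and did not pass, although both D1 libraries were above both D2 libraries and 4 of 11 alternatives called it. Scap stood at 105.2, 102.2, 97.5 and 95.5 CPM (-0.10 ± 0.05; adjusted p = 0.203). Nr1h3 stood at 2.51, 2.16, 3.92 and 3.69 CPM, higher in both D2 libraries (0.71 ± 0.17; adjusted p = 0.0285). Nr1h3 had the largest fitted difference among the members and one of the lowest levels.

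Of the 7 transport genes 1 was called. Apoe, the main lipoprotein component made by astrocytes, stood at 52.4, 65.6, 74.5 and 73.8 CPM (0.34 ± 0.08; adjusted p = 0.0246). The D2 to D1 log2 ratio was 0.51 (0.43 to 0.59) in WT and 0.17 (0.10 to 0.24) in BACHD, so the D1 WT library set much of the size. Without D1 WT, with cell type as the 1 term, the fitted difference was 0.17 and did not pass (adjusted p = 0.218, within a range of 0.0029 to 0.239 over the alternatives for this gene), and that model did not call it on all 4 libraries either. Stard4, a cytosolic sterol carrier that SREBP2 induces, stood at 14.4, 15.9, 11.8 and 13.3 CPM (-0.27 ± 0.08; adjusted p = 0.0695), and Abcg1 stood at 84.5, 85.4, 96.1 and 92.0 CPM (0.15 ± 0.05; adjusted p = 0.0987). Neither passed, although D1 and D2 libraries did not overlap for either gene.

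Of the turnover genes, Soat1 was called and Cyp46a1 was not. Soat1 stood at 3.84, 4.01, 2.67 and 2.36 CPM, higher in both D1 libraries (-0.64 ± 0.17; adjusted p = 0.0423). Of the 10 alternatives that gave Soat1 a value, total-count scaling alone kept the call, and the adjusted p ran from 0.0179 to 0.441. Cyp46a1, at the CPM values given above, was higher in both D2 libraries by a small amount that did not pass (0.15 ± 0.05; adjusted p = 0.104).

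Within each genotype no member reached a 2-fold D2 to D1 ratio, beside 4.81% of all genes in WT and 4.78% in BACHD. At a ratio of 1.5, Nr1h3 passed in WT, and Nr1h3 and Soat1 in BACHD, beside 10.5% and 9.87% of all genes. The interval excluded 1 the same way in both genotypes for 14 members (41.2%), beside 30.5% of all genes, and in opposite ways for Cyp51, beside 3.34%. Higher in D2, beside 14.0% of all genes, were Abcg1, Apoe, Cyp46a1 and Nr1h3, and higher in D1, beside 16.5%, were Acat2, Fdft1, Insig1, Lrp1, Sc5d, Scap, Soat1, Sqle, Srebf2 and Stard4. These intervals cover counting error only and narrow as counts rise, so the shares also depend on level. For Lrp1, a gene of high counts, the ratios were 0.970 in WT and 0.941 in BACHD (cell type term, edgeR adjusted p = 0.442). With other scalings, chosen after the data were seen, the number was 13 (total counts) and 15 (DESeq2 size factors).

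**Figure D3:**
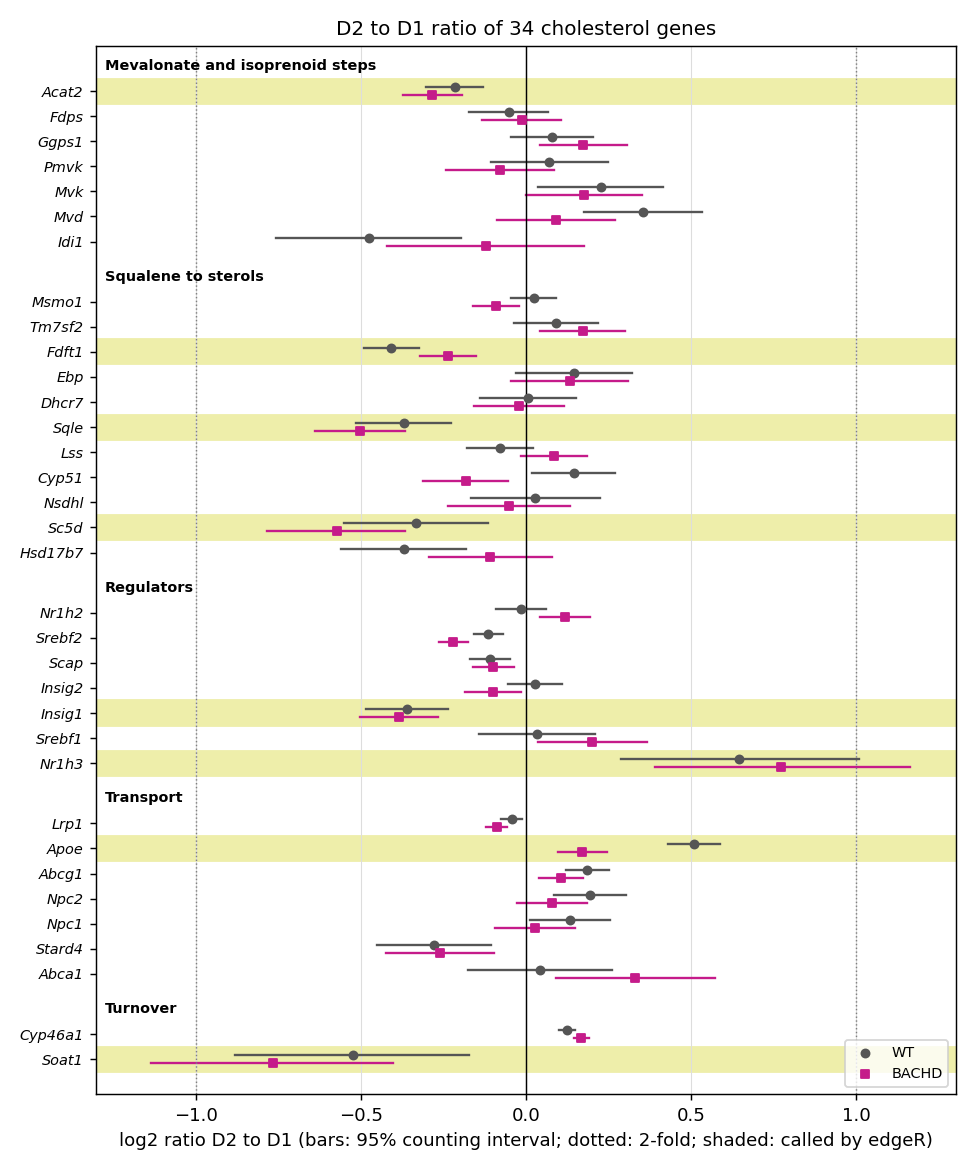
D2 to D1 log2 ratio of each member in WT (circles) and BACHD (squares), with 95% counting intervals as bars, dotted lines at a 2-fold ratio and shading for the 8 members called by edgeR. Acat2, Fdft1, Sqle, Sc5d, Insig1 and Soat1 lie left of 0 in both genotypes, and Nr1h3 and Apoe lie right of 0.

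Promoters are shown for the called members with a window, Insig1, Sc5d, Acat2 and Soat1 of those higher in D1 and Apoe and Nr1h3 of those higher in D2, to set the sequences of both directions side by side. Mvk is added as the window with the most CCAAT matches. RefSeq windows (GRCm38.p6, from 250 bases before to 50 bases after a transcription start, 300 bases) covered 29 of the 35 listed genes, of which 28 were measured. They were searched on both strands for 3 motifs, TCACNCCAC (the core of a sterol regulatory element), CCAAT (bound by NF-Y) and GGGCGG (bound by Sp1). CCAAT and GGGCGG are common in promoters at large, and no matches overlapped each other. Only the 250 bases before the start are printed, 5′ to 3′ on the gene's strand, with matches in capitals, so that CCAAT reads ATTGG and GGGCGG reads CCGCCC where the match is on the other strand. For Apoe, with 3 windows, and Nr1h3, with 2, the window farthest 5′ is shown.
Insig1 (chr5:28071162-28071411, plus strand): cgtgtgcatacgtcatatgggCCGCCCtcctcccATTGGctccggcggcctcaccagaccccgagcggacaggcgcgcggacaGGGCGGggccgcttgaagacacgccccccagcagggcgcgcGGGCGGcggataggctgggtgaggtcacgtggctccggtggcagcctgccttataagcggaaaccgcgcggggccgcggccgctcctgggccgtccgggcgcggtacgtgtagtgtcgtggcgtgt
Sc5d (chr9:42264301-42264550, minus strand): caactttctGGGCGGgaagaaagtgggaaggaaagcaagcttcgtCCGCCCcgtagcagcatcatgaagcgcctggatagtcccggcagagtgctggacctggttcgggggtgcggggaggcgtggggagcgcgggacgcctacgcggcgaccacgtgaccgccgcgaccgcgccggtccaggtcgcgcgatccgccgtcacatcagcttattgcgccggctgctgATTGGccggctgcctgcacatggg
Acat2 (chr17:12960726-12960975, minus strand): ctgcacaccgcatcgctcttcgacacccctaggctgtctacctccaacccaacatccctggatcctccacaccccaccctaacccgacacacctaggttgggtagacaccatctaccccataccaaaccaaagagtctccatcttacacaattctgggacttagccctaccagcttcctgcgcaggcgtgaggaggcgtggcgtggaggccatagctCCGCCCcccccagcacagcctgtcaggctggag
Soat1 (chr1:156474329-156474578, minus strand): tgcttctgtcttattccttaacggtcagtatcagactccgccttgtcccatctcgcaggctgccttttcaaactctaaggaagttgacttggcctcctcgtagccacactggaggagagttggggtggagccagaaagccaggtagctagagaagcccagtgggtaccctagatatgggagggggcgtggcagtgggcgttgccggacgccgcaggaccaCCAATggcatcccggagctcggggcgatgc
Mvk (chr5:114444019-114444268, plus strand): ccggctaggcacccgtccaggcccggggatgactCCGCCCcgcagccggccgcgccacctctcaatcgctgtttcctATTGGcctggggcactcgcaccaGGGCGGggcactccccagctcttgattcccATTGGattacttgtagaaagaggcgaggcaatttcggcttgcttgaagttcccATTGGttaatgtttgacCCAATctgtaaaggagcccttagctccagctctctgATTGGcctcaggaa
Apoe (chr7:19699189-19699438, minus strand): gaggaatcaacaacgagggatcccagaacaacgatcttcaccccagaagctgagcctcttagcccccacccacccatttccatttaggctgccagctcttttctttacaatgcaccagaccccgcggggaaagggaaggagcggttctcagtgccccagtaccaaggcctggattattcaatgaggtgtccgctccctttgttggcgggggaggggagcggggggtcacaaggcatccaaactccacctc
Nr1h3 (chr2:91195117-91195366, minus strand): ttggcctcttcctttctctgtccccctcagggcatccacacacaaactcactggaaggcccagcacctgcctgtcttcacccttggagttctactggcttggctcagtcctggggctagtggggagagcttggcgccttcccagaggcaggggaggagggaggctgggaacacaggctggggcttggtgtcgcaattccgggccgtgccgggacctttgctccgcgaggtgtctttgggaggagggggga

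The Insig1 stretch held 1 CCAAT and 3 GGGCGG matches, that of Sc5d 1 and 2, that of Acat2 0 and 1, that of Soat1 1 and 0, and that of Mvk 5 and 2. The stretches of Apoe and Nr1h3 held neither. Of the 15 measured synthesis genes with a window, 14 (93.3%) had CCAAT in the 300 bases, Acat2 being the exception, beside 41.1% of all 27025 genes in the table. In 60.0% of them it occurred 2 or more times, beside 13.3% of all genes. GGGCGG occurred in 86.7% of the synthesis genes and 38.2% of all genes. In the 13 regulation, transport and turnover members with a window, GGGCGG occurred in 76.9% and CCAAT in 53.8%. The 27025 genes were not limited to those expressed here. TCACNCCAC occurred in the window of 0 of the 28 measured members searched, in that of Hmgcs1 among the listed genes, and in 1.44% of all genes. A match had to be exact except at N and lie in the window, so other forms of the element were not counted. No search was made for Fdps, Fdft1, Sqle, Abcg1, Npc1 and Stard4. Synthesis genes called higher in D1 (Acat2, Sc5d) and those not called (Mvk and others) both held at least 1 of these motifs.

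Markers of other cells moved with some of these genes. The 7 astrocyte markers summed to 129, 179, 173 and 171 CPM, with none at 0. D1 WT was thus the lowest library for the astrocyte sum and for Apoe, and all 7 astrocyte markers were higher in D2 than in D1 in WT against 3 of 7 in BACHD. The 7 microglial markers summed to 33.95, 36.8, 39.2 and 46.3 CPM, with none at 0, and 3 of the 6 tested passed as higher in D2, as did Apoe and Nr1h3. Of the 7 microglial markers, 6 were higher in D2 than in D1 in WT and 7 in BACHD. Aif1, at 21.3, 21.4, 18.6 and 22.5 CPM, made up much of the microglial sum and was lower in D2 in WT. None of the 8 oligodendrocyte markers was at 0. The 4 precursor markers ran from 0.853 to 1.66 CPM and the 5 endothelial markers from 1.55 to 4.65 CPM in sum.

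All 6 cortical glutamatergic markers, with the sums given above, were called higher in D1. D1 BACHD was the highest library for this sum and also for Sqle, Sc5d, Insig1, Srebf2, Stard4 and Soat1, whereas Fdft1 and Acat2 were highest in D1 WT. The part that other cell types had in the differences of Apoe, Nr1h3 and the genes higher in D1 was not tested.

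**Figure D4:**
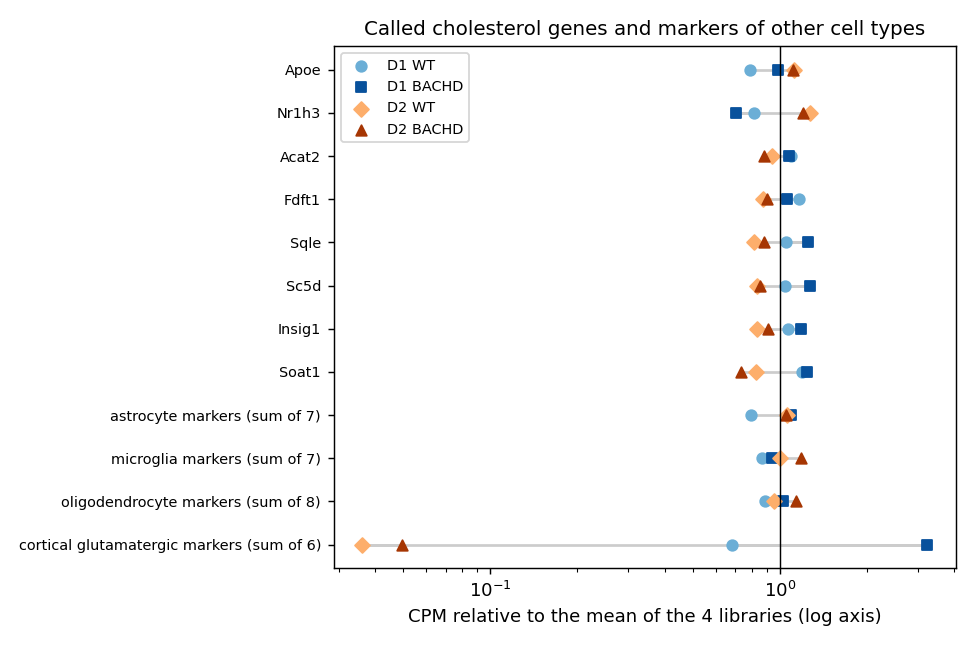
CPM of the 8 called members and summed CPM of markers of 4 other cell types, each divided by its mean over the 4 libraries (log axis), 1 point per library. D1 WT is lowest for Apoe and for the astrocyte markers, and the cortical markers range from 1.498 to 134.5 CPM, far wider than any member.

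Some members share exon sequence with a neighbour on the other strand, and use of strand in the counting is not given. Fdft1 (ENSMUSG00000021273, chromosome 14, 63145150 to 63179578, GRCm38) overlaps exons of the protease gene Ctsb, which stood at 551, 510, 528 and 507 CPM with a D2 minus D1 difference of -0.04 ± 0.05 (edgeR adjusted p = 0.719). Ctsb was much higher in level than Fdft1, and the D1 and D2 libraries of Ctsb overlapped. Both genes were highest in D1 WT. The part of Ctsb reads in the Fdft1 values was not tested. Nr1h3 (ENSMUSG00000002108, chromosome 2, 91184061 to 91202834) overlaps the transcript Gm13783 on its own strand, which stood at 0.117 to 0.233 CPM. Of the other called members, Acat2 (chromosome 17, 12942890 to 12960747), Sqle (chromosome 15, 59315077 to 59331192), Sc5d (chromosome 9, 42251595 to 42264256), Insig1 (chromosome 5, 28071363 to 28078662), Soat1 (chromosome 1, 156424525 to 156474331) and Apoe (chromosome 7, 19696109 to 19699188) share no exon with another annotated gene.

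Beyond the members, 41 further cholesterol genes were tested (receptors, carriers, other enzymes and processing proteases). None was called for genotype by edgeR, with 5 (12.2%) at an unadjusted p under 0.05, nor by DESeq2, with 1 (2.44%). Over all genes these unadjusted shares were 13.4% and 4.16%. By cell type 10 passed (24.4%), 6 with more in D1 and 4 with more in D2. Of all genes 17.0% passed, 10.2% with more in D1 and 6.81% with more in D2. Lrpap1, which encodes the chaperone that keeps LRP1 family receptors free of ligand during their folding, stood at 240.8, 238.2, 113.8 and 105.9 CPM (D2 minus D1 difference -1.13 ± 0.05; edgeR adjusted p = 4.87e-06). Both D1 libraries were far above both D2 libraries for Lrpap1, while Lrp1, whose product it serves, was not called. Sorl1, a sorting receptor that binds APOE, stood at 212.7, 220.0, 155.8 and 164.9 CPM (-0.43 ± 0.05; adjusted p = 0.0006). Stard5, of the START family of lipid-binding proteins, stood at 7.05, 9.45, 14.6 and 19.5 CPM, higher in both D2 libraries (1.05 ± 0.09; adjusted p = 0.0002), and without D2 BACHD, with cell type as the 1 term, its adjusted p was 0.0536, the highest over its alternatives, from 2.28e-06.

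Fatty acid synthesis, which shares the SREBP regulators, gave 13 tested genes. None was called for genotype by edgeR, with 2 (15.4%) at an unadjusted p under 0.05, nor by DESeq2, with 1 (7.69%). Over all genes these unadjusted shares were 13.4% and 4.16%. By cell type 2 were called (15.4%), beside 17.0% of all genes. Me1, the malic enzyme that supplies NADPH, stood at 5.23, 8.26, 3.62 and 3.39 CPM (-0.92 ± 0.20; adjusted p = 0.0160), and D1 BACHD was highest. Scd1, a stearoyl-CoA desaturase, stood at 7.24, 11.1, 10.2 and 13.6 CPM (0.39 ± 0.11; adjusted p = 0.0409). D1 BACHD lay above D2 WT for Scd1, so its groups overlapped, and 2 of 11 alternatives kept its call.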

How the data were processed

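The authors deposited estimated counts and FPKM per Ensembl gene for 4 libraries, in tables of 37620 identifiers. Of the count entries, 19.4% were not whole. Sequencing gave paired 50-base reads and CASAVA 1.8.2 was used, per the labels and the submitters' processing notes. The aligner, counter, strand setting, annotation and build were not given in the sources used here. Counts were rounded, symbols were matched for 32897 identifiers, and 13400 genes with at least 1 CPM in 2 of the 4 libraries were kept. edgeR 4.0.16 (R 4.3.3) fitted cell type and genotype with TMM scaling and adjusted p over all genes tested. The fit has 1 residual degree of freedom and leans on variance shared across genes (median 6.67 prior degrees of freedom), so p-values measure no spread between pools of a group. The SE is the log2 change divided by the square root of F. Ratios of single libraries have exact conditional binomial 95% intervals, with counts under 3 set to 3. The members and lists were chosen with earlier results of these data known. Given in all 4 libraries are members called by either term, past the ratio of 2, changed the same way in both cell types by interval, or among the 3 of highest mean FPKM in a role. From the further lists, called genes averaging 5 CPM or more are named, at most 6 per list. Any other member named was picked with its values in view. Some genes that the rule takes are not reported here. The alternatives tried were scaling by total counts, DESeq2 1.42.0, other filters, limma 3.58.1 on log2 FPKM plus 0.1 or 1, a model of 1 term, a ratio of 1.5, a threshold of 0.1, and leaving out a library at a time with the term tested as the 1 term. The steps were tested on simulated data.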

Additional observations from a re-analysis of the deposited data

Results flagged for a closer look

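Cyp51, the sterol C14 demethylase gene, stood at 23.0 (WT) and 24.5 (BACHD) CPM in D1 cells and at 25.4 (WT) and 21.6 (BACHD) CPM in D2 cells. D2 was above D1 in WT and below it in BACHD, with D2 to D1 log2 ratios of 0.14 (95% counting interval 0.02 to 0.27) and -0.18 (-0.31 to -0.05), a difference of -0.33 between the genotypes. Both intervals excluded a ratio of 1, in opposite ways, as they did for 3.34% of all genes. The difference was not tested, since each group had 1 library. Exons of Akap9 overlap Cyp51 on the other strand, and Akap9 stood at 260.4, 250.9, 306.9 and 273.0 CPM in the same order. Akap9 was highest in D2 WT, as Cyp51 was. In BACHD, Akap9 was higher in D2 than in D1, where Cyp51 was lower. In D1, Akap9 was lower in BACHD than in WT, where Cyp51 was higher. The part of Akap9 reads in the Cyp51 values was not tested.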

How the results depend on the processing

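The number of members called for genotype was 0 under every alternative, with 0 to 4 at an unadjusted p under 0.05. The number called by cell type was 8, against 2 by DESeq2, 0 by edgeR without a filter (12 at an unadjusted p under 0.05), 3 with cell type as the 1 term, and 0 to 3 when a library was left out. With 3 libraries the term tested was the 1 term, since both terms leave no residual, so these counts compare with 3 rather than 8. The number of members was 11 with total-count scaling, 6 when genes under 10 CPM were left out, and 7 on FPKM with either pseudocount. Cell type calls over all genes made up 17.0% in the main fit, 9.93% by DESeq2, 3.40% without a filter and 10.8% with 1 term. They made up 22.0% with total-count scaling, 17.6% with the filter of 10 CPM, and 14.5% and 13.5% on FPKM plus 0.1 and plus 1. With a ratio of 1.5, 1 member passed for D2 against D1 in WT and 2 in BACHD, instead of 0. All-gene genotype calls were 59, against 144 with total-count scaling, 77 by DESeq2, 42 with the filter of 10 CPM, 1 on FPKM plus 1, and 0 without a filter, on FPKM plus 0.1, with 1 term or without any library. All-gene cell type calls were 2274, against 1330 by DESeq2, 810 without a filter, 1449 with 1 term and 821 to 1400 without a library. In these 1-term fits genotype values changed sign for Sqle (range when a library was left out -0.0752 to 0.428), Apoe (-0.100 to 0.411) and Cyp46a1 (-0.0296 to 0.136). With 1 library of a cell type gone, such a value also holds the difference between D1 and D2. With both terms it would rest on the remaining pair, and the pair ratios of Sqle and Cyp46a1 were positive in D1 and D2. On FPKM, Lrp1 changed sign (0.0195 with a pseudocount of 0.1 and 0.0194 with 1), and the cause was not tested. No paired analysis was possible because each group had 1 library and the labels carry no shared replicate numbers. Depth limits genes such as Soat1 and Nr1h3 most, since their intervals are the widest.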
